A study of Homo sapiens with 17 samples.

Results

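Jurkat cells kept with 25 µg/ml of ILT3.Fc were followed over time: the 2 libraries taken at 24 h were compared with the 2 taken at 6 h, and the 2 taken at 12 h served as a midpoint. These 6 libraries, of 17 analysed, were chosen by their labelled dose and time and not by any measured value. Jurkat is an established human T-cell acute lymphoblastic leukaemia line, and ILT3.Fc is a recombinant fusion of an antibody Fc with the ectodomain of ILT3, an inhibitory receptor of myeloid cells that the gene LILRB4 encodes. The study, which set out to find a master regulator of the response to ILT3.Fc, kept the line with 0, 12.5 or 25 µg/ml of the protein for 6, 12 or 24 h in RPMI-1640 medium with fetal bovine serum, and measured polyadenylated RNA by sequencing. Every group had 2 libraries apart from untreated cells at 12 h, for which 1 library was analysed here. All groups were the same unmodified line in the same medium, and the labels name no control Fc protein and no medium change or cell density. The labels say that each sample was duplicated but not whether the duplicates were separate cultures, so every p-value below measures the spread between these libraries, which may be technical. The comparison asks how the RNA profile moved between 6 and 24 h in the presence of the protein, which is a different question from how treated cells differed from untreated ones. Untreated cells at 6 and 24 h are used only to test whether their own movement over the same hours was different.

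Several of the gene groups described below are read as programmes in growing lymphoid cells. Cells make cholesterol through a chain of enzymes that starts with HMGCS1 and ends with such reductases as DHCR7. When membrane sterol is low, SCAP escorts the transcription factor SREBP-2 (gene SREBF2) out of the endoplasmic reticulum, the factor is cleaved, and it raises these enzymes. INSIG1 holds SCAP back when sterol is plentiful. Genes for mitosis, such as the cyclins CCNB1 and CCNB2 and the kinase PLK1, are switched on late in the cell cycle, and many carry a CHR element (cell cycle genes homology region) with CCAAT boxes in their promoters. The hnRNP and SR proteins bind nascent transcripts and steer splicing, and many of them restrain their own mRNA through alternative exons. Cytosolic heat shock proteins fold other proteins, and HSF1 drives their transcription.

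The windows below were taken from the RefSeq promoter table of build GRCh38.p14, to show the elements that members of the mitosis and cholesterol lists carry. Capitals mark matches to CHR (TTTGAA) or to the CCAAT box (CCAAT), searched on both strands, so ATTGG is a CCAAT box on the opposite strand. Each window ends before the annotated start of its gene, and each line runs in the direction of transcription. The mitotic genes are CCNB2 at chr15:59105006-59105142 and PLK1 at chr16:23678796-23678885, both on the plus strand, with HMMR at chr5:163460468-163460631 and KIF20A at chr5:138178998-138179069, also on the plus strand. HMMR encodes a spindle protein that binds hyaluronan and KIF20A a kinesin of cytokinesis. The KIF20A window holds CCAAT boxes and no CHR match.
CCNB2: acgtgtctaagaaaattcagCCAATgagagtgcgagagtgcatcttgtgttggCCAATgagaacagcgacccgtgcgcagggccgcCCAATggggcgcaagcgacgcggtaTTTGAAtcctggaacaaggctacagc
PLK1: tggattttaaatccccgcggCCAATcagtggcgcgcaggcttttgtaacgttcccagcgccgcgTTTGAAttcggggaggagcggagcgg
HMMR: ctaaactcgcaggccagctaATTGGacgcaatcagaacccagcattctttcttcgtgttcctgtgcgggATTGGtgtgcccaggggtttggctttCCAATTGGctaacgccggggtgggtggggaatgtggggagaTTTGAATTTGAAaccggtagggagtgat
KIF20A: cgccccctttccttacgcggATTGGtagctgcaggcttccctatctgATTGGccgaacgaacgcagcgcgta
The sterol genes are HMGCS1 at chr5:43313488-43313587 and DHCR7 at chr11:71448417-71448507, both on the minus strand, and MSMO1 at chr4:165327510-165327659 on the plus strand.
HMGCS1: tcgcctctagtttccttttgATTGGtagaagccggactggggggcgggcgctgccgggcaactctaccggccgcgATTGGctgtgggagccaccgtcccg
DHCR7: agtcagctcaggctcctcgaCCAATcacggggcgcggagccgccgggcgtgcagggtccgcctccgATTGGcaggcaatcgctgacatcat
MSMO1: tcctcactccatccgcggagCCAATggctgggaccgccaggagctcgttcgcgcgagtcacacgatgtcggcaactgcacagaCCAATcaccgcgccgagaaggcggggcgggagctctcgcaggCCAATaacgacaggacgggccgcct
CHR occurred in 25 of the 39 mitotic promoters that were in the table (64.1%), against 15.4% of all 27305 promoters of the same length. A CCAAT box occurred in 32 of the 39 (82.1%), against 35.7% of all, and the pair in 23 (59.0%), against 6.08% of all. Of 17 promoters of cholesterol enzymes 12 held a CCAAT box (70.6%), and 0 held the sterol element TCACNCCAC, which 1.15% of all promoters held in a window of this length. The exact count of each motif depends on these spellings, and a match of CCAAT on one strand can overlap ATTGG on the other, as in HMMR. These matches are letters in a window of 250 bases before to 50 after each start, not measured binding sites.

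The values are FPKM, fragments scaled by transcript length and library size, and 12025 genes with a mean of at least 1 FPKM over the 6 libraries were tested. The 17 libraries had between 11842 and 12016 genes at 1 FPKM or more. The files give no counts, so the depth is unknown. Changes are differences of log2(FPKM + 1), which understates those of low genes, and a gene was called when limma's moderated test gave an adjusted p below 0.05. All 14 T cell and Jurkat identity genes in the table, CD3D, LCK, TAL1 and PTCRA among them, were above 1 FPKM on average, and their summed level was 1878 to 1915 FPKM at 6 h, 1934 to 1988 at 12 h and 2019.7 to 2040.4 at 24 h. Of the markers of other cell types, 11 were listed at 0 in all 6 libraries, among them NCR1, PAX5, S100A8, HBB, HBG1, EPCAM, KRT19, CDH1, COL1A2 and DCN. Myeloid markers summed to at most 0.46 FPKM, epithelial and fibroblast markers to at most 0.422, erythroid markers to 1.62 to 2.83 and NK markers to 6.55 to 8.86. B cell markers summed to 38.3 to 41.4 FPKM, nearly all of it CD79A. LILRB4 itself was listed at 0 FPKM in all 17 libraries.

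One of the libraries stood apart. The second 24 h library deviated from the other libraries along the GC content of transcripts, with a Spearman correlation across genes of 0.57, against 0.13 for its duplicate, -0.23 and -0.28 for the 6 h libraries and -0.33 and -0.17 for the 12 h libraries. It also had the lowest median correlation with the other libraries, 0.977. The change from 6 to 24 h also ran with GC content (Spearman correlation across genes 0.42, and 0.23 without that library); the part of the library in it was tested only by leaving it out. In the quintile of genes poorest in GC the median log2 change was -0.06, with 2.28% called higher and 13.5% lower, and in the richest quintile it was 0.14, with 29.2% called higher and 2.87% lower. Without the second 24 h library these medians were -0.03 and 0.08. In untreated cells the same medians ran the other way, from 0.02 to -0.06. There the second 24 h library deviated along GC content at -0.37, against 0.03 for its duplicate. The difference between the treated and untreated changes also ran with GC content (Spearman correlation across genes 0.57). It was called above 0 in 0.224% of the poorest quintile and 7.43% of the richest, and below 0 in 1.79% and 0.0896%. Values are also given after each library's trend with GC content and transcript length was removed (called "corrected" below), and the counts of most lists also without the second 24 h library. In every fit without a library, the spread of the library left alone in its group is taken from the other groups. Losses of a called difference were counted over 51 named genes, which are listed in the closing sections. ACAT2, NSDHL, FDPS, CHORDC1, NEU1 and CTSA are also named below for such a call and were not counted. A called difference between the treated and untreated courses mostly did not hold without single libraries: of the 51 genes named for one, 43 lost the call without the second treated 24 h library, 47 without the second untreated 24 h library, 44 and 48 without the first and second untreated 6 h library, 32 and 48 without the first and second treated 6 h library, 17 without the first untreated 24 h library and 1 without the first treated one. HMGCS1 and C6orf223 kept it in all 8 of these fits, and MVD in 7.

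**Figure D1:**
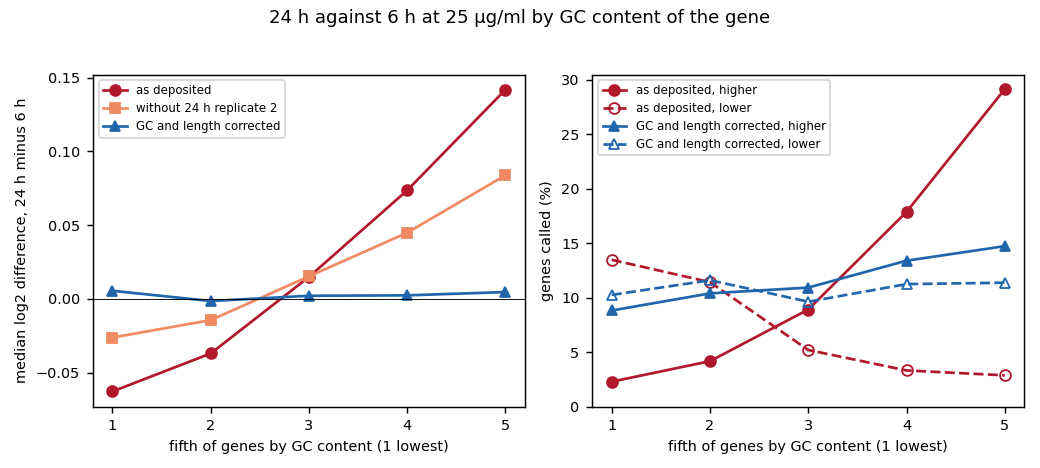
Left, the median log2 difference between 24 and 6 h at 25 µg/ml in each quintile of genes by GC content (1 is the poorest), with the deposited values, without the second 24 h library and with the GC and length correction; right, the percentage of genes in each quintile called higher (solid lines) or lower (broken lines). With the deposited values the medians climb from -0.06 to 0.14 and the share called higher from 2.28% to 29.2%, and the corrected lines are flatter.

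Between 6 and 24 h at 25 µg/ml, 2307 of the 12025 genes were called (19.2%), 1422 higher at 24 h (11.8%) and 885 lower (7.36%). Of these, 1404 changed by at least 0.25 on the log2 scale, 201 by at least 0.5 and 28 by at least 1, so most movements were small. Corrected, 2509 of 11163 genes were called (22.5%; 11.7% higher and 10.8% lower), and 1599 of the main calls (69.3%) were called again in the same direction. The share of calls that were higher was 61.6%. It was 51.9% corrected, 53.9% after quantile normalization and 57.3% with each library centred on its median. The count was 912 without the second 24 h library (4.12% higher and 3.46% lower), 1181 without the first 6 h library and 732 without the second. All 24 h libraries were sequenced in lane 4, all 12 h libraries in lane 5 and the 6 h libraries one in each: with lane as a term 1706 genes were called, and within lane 4, where 6 h has 1 library, 103.

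The 12 h libraries lay closer to 6 h than to 24 h. From 6 to 12 h a single gene was called (0.00832%), with 1011 at an unadjusted p below 0.05, and 46 corrected (0.412%). From 12 to 24 h 1454 genes were called (12.1%), although there lane and time cannot be told apart, and 245 with lane as a term. For each gene called between 6 and 24 h, the position of the 12 h mean was expressed as a share of the whole change, 0 being the 6 h level and 1 the 24 h level. The median share was 0.217 over the 2307 genes, 0.185 for rises and 0.281 for falls, and 0.194 and 0.242 with either 12 h library alone. In 941 genes (40.8%) the 12 h mean lay between 0.25 and 0.75 of the way, in 802 (34.8%) between 0 and 0.25, and in 462 (20.03%) it lay on the other side of the 6 h level. It lay between 0.75 and 1 in 76 genes (3.29%) and had passed the 24 h level in 26 (1.13%). The gene called from 6 to 12 h was SFPQ, named after its values were seen, which encodes a paraspeckle and splicing factor. SFPQ stood at 354 and 353 FPKM at 6 h, 286 and 277 at 12 h and 291 and 292 at 24 h. Both later pairs lay far below the 6 h pair and close to each other, so none of the fall came later (log2 change -0.33, SE 0.0317, limma adjusted p = 0.00644). The SFPQ call was lost after quantile normalization and when only the 6 libraries at 25 µg/ml were fitted.

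**Figure D2:**
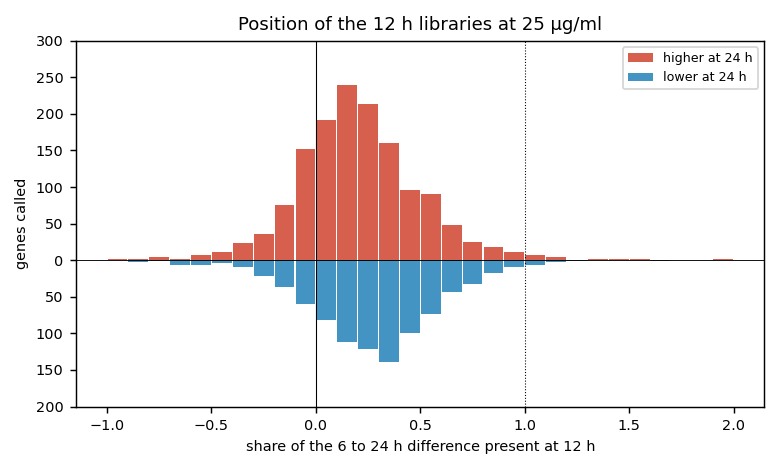
Histogram of the share of the 6 to 24 h change that was present at 12 h (x axis, 0 is the 6 h level and 1 the 24 h level) over the genes called between 6 and 24 h at 25 µg/ml; rises are drawn above the axis and falls below it as numbers of genes, with 2 genes beyond the axes. The bulk lies between 0 and 0.75, with medians of 0.185 for rises and 0.281 for falls, and 26 genes lie beyond 1.

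Cholesterol synthesis rose late. Of the 22 enzymes in the list, all of which were tested, 17 were higher at 24 h than at 6 h and 1 lower, where 11.8% and 7.36% of all genes were called, and their median log2 change was 0.29 beside 0.01 for all genes. Those named here cover the chain from its start (HMGCS1, MVK, MVD, IDI1, FDPS) through squalene (FDFT1, SQLE, LSS) to the last steps (CYP51A1, MSMO1, NSDHL, EBP, TM7SF2, DHCR7), with ACAT2. HMGCS1, the synthase that makes HMG-CoA, had 96.5 and 91.9 FPKM at 6 h, 77.8 and 79.4 at 12 h and 136 and 130.04 at 24 h. The 12 h pair was the lowest and the 24 h pair the highest, with no overlap between the 3 times. The change from 6 to 24 h was 0.49 (SE 0.0413, limma adjusted p = 0.000135), and 0.54 corrected. DHCR7, which makes cholesterol from 7-dehydrocholesterol, had 48.1 and 47.1 FPKM at 6 h, 44.7 and 44.1 at 12 h and 70.6 and 73.6 at 24 h. It followed the same order, with a change of 0.59 (SE 0.0405, limma adjusted p = 4.57e-05), 0.48 corrected. MSMO1, a sterol demethylase, had 34.1 and 33.6 FPKM at 6 h, 32.7 and 31.6 at 12 h and 52.98 and 49.7 at 24 h, again with the 24 h pair above the other 4 libraries. Its log2 change was 0.59 (SE 0.0594, limma adjusted p = 0.000433) and 0.64 corrected. FDFT1, squalene synthase, had 228 and 221 FPKM at 6 h, 196 and 203 at 12 h and 298 and 291 at 24 h, a change of 0.39 (SE 0.0434, limma adjusted p = 0.000609).

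The dip at 12 h was shared across the pathway. Both 12 h libraries lay below both 6 h libraries in 18 of the 22 enzymes, where 21.8% of all genes showed that order, and the median change from 6 to 12 h was -0.12 beside 0.00 for all genes. None of the 22 was called from 6 to 12 h by limma, with 9 at an unadjusted p below 0.05, and 7 were called corrected (HMGCS1, MVK, FDFT1, SQLE and LSS among them). With only the lane 5 libraries, 18 of 22 had both 12 h libraries below the 6 h library, beside 37.3% of all genes. MVK, mevalonate kinase, and LSS, lanosterol synthase, are examples chosen after their values were seen. MVK went from 10.5 and 10.3 FPKM at 6 h to 7.74 and 8.12 at 12 h and 14.5 and 15.1 at 24 h. LSS had 44.3 and 44.001 FPKM at 6 h, 36.4 and 37.4 at 12 h and 49.8 and 56.98 at 24 h. At 24 h both libraries exceeded all 4 earlier ones in 19 of the 22 enzymes, where 25.9% of all genes did. The dip was also seen at the other doses: at 12.5 µg/ml both 12 h libraries were below both 6 h libraries in 18 of 22 (25.0% of all genes), and the single untreated 12 h library was below both 6 h libraries in 21 of 22 (44.0% of all genes).

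Few of these enzymes were called in untreated cells. There limma called 0 of the 22 enzymes higher from 6 to 24 h and 2 lower (MVD and LSS), with a median of -0.02, where 2.35% of all genes were called (0.557% higher and 1.8% lower). Corrected, 2 were higher and 4 lower (5.11% and 3.82% of all genes). The difference between the 2 time courses was tested directly as the change at 25 µg/ml minus the change at 0 µg/ml, for which 397 genes were called in all (3.3%; 2.35% above 0 and 0.948% below). In 10 enzymes it was above 0 (MVD, HMGCS1, MVK, LSS, ACAT2, MSMO1, DHCR7, FDFT1, NSDHL and FDPS) and in LBR below 0, with a median of 0.39 beside 0.04 for all genes. Corrected, 12 were above 0 and LBR below: IDI1 and CYP51A1 were among those added and DHCR7 was lost (0.27, limma adjusted p = 0.0632). HMGCS1 in untreated cells went from 75.4 and 75.1 FPKM at 6 h to 65.2 and 69.2 at 24 h, and the difference was 0.65 (SE 0.0584, limma adjusted p = 0.00277). MVD, which makes isopentenyl diphosphate and was named after its values were seen, rose from 29.8 and 31.6 to 40.5 and 43.02 FPKM at 25 µg/ml and fell from 32.5 and 34.2 to 27.2 and 25.6 in untreated cells (difference 0.76, SE 0.09, limma adjusted p = 0.0112). At 12.5 µg/ml 6 enzymes were higher and MVD lower, where 6.05% of all genes were called (2.21% higher and 3.83% lower), with a median of 0.05; one of its 6 h libraries followed transcript length (Spearman -0.61). The members that were not called at 25 µg/ml were GGPS1, HSD17B7, PMVK and SC5DL, and LBR, a nuclear envelope protein with sterol reductase activity, fell from 96.7 and 98.3 FPKM at 6 h to 86.5 and 82.1 at 24 h (-0.21, limma adjusted p = 0.00625). Leaving out each library in turn left 12 to 15 enzymes called higher from 6 to 24 h, with medians of 0.27 to 0.34, and within lane 4, where the spread of the single 6 h library is taken from the other groups, HMGCS1, MVD, FDFT1 and DHCR7 were called. There the difference from untreated cells was called in none of the 22. The difference from untreated cells was called in 2 to 10 enzymes when a library was left out: 2 without either second 6 h library, 3 without either second 24 h library or the first untreated 6 h library, 4 without the first treated 6 h library, and 7 and 10 without the first untreated and treated 24 h libraries. Its median stayed between 0.38 and 0.40 throughout.

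**Figure D3:**
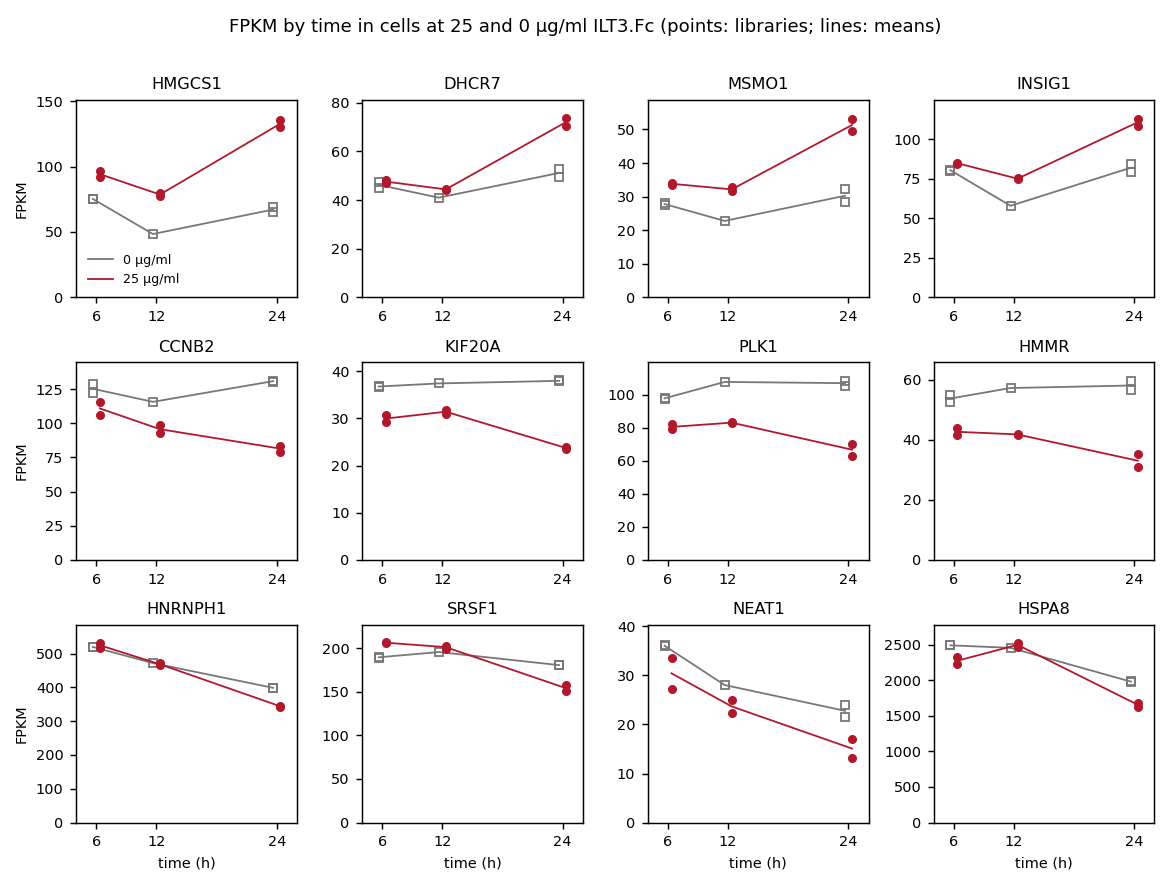
FPKM (y axis) against time in h (x axis) for NEAT1 and 11 genes of the sterol, mitosis, splicing and chaperone lists; filled circles are single libraries at 25 µg/ml, open squares single libraries at 0 µg/ml, and lines join the group means. At 24 h HMGCS1 lies at 136 and 130.04 FPKM with ILT3.Fc and 65.2 and 69.2 without it, CCNB2 at 83.7 and 79.3 and 130.5 and 131, and NEAT1 and HNRNPH1 lie below their 6 h levels at both doses.

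Regulators and uptake followed in part. Of 12 tested genes of SREBP control and sterol uptake, 5 were higher (INSIG1, NPC1, SCAP and SREBF2 among them) and none lower. Of all genes 11.8% were higher and 7.36% lower, and the median of the list was 0.18. Without the second 24 h library 3 were higher. SCAP was not called corrected, and STARD4, a sterol carrier, was. INSIG1 had 84.5 and 84.99 FPKM at 6 h, 74.6 and 75.3 at 12 h and 113 and 109 at 24 h. The 12 h pair was again the lowest, and the change from 6 to 24 h was 0.38 (SE 0.0425, limma adjusted p = 0.000609), 0.38 corrected. In untreated cells INSIG1 had 80.1 and 80.5 FPKM at 6 h and 79.3 and 84.5 at 24 h, a difference of 0.35 between the courses (limma adjusted p = 0.0171). That call was lost in 6 of the 8 fits without a library and was kept only without the first 24 h library of either course. SREBF2 had 50.5 and 49.8 FPKM at 6 h, 43.2 and 42.8 at 12 h and 58.6 and 64.6 at 24 h, with the 12 h pair the lowest, and a change of 0.29 (limma adjusted p = 0.00786) that was not called without the second 24 h library (adjusted p = 0.0707). NPC1, the lysosomal sterol exporter, rose from 10.9 and 11.6 FPKM at 6 h to 14.3 and 14.1 at 24 h (0.31, limma adjusted p = 0.00747). Among 13 tested genes of fatty acid synthesis and desaturation, 4 were higher (ACLY, ELOVL1, FASN and TMEM97) and 1 lower (ELOVL5), beside 11.8% and 7.36% of all genes, with a median of 0.14. Without the second 24 h library 1 was higher and 1 lower. FASN, the fatty acid synthase, had 30.5 and 32.8 FPKM at 6 h, 29.8 and 31.3 at 12 h and 37.9 and 43.8 at 24 h, with the second 24 h library the highest (0.36, limma adjusted p = 0.0218; 0.17 without that library). In none of the 13 was the difference from untreated cells called by limma, with 8 at an unadjusted p below 0.05. Of 4 tested genes of sterol export, ABCG1, an exporter, and NR1H3, the sterol sensor LXR alpha, were higher and NR1H2 and LPCAT3 were not called. ABCG1 went from 2.199 and 2.73 FPKM at 6 h to 3.44 and 3.33 at 24 h (0.35, limma adjusted p = 0.0219) and NR1H3 from 5.03 and 4.81 FPKM at 6 h to 6.44 and 7.49 at 24 h (0.42, limma adjusted p = 0.00924). Neither was called without the second 24 h library (0.0808 and 0.0822).

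Genes of mitosis were lower at 24 h. Of the 46 in the list, all tested, 25 were called lower and 1 higher, where 7.36% and 11.8% of all genes were. Their median log2 change was -0.16 beside 0.01 for all genes. The 25 include cyclins and their kinase (CCNB1, CCNB2, CDK1), spindle motors (KIF11, KIF14, KIF20A, KIF20B, KIF23, KIF4A), spindle and midzone proteins (TPX2, PRC1, NUSAP1, ASPM, HMMR, ECT2), centromere proteins (CENPE, CENPF), checkpoint and anaphase genes (BUB1B, CDC20, PTTG1) and TOP2A. CCNB2, a cyclin that drives entry into mitosis, had 116 and 106 FPKM at 6 h, 92.6 and 98.8 at 12 h and 83.7 and 79.3 at 24 h. The levels were ordered 6 h, 12 h, 24 h with no overlap, and the log2 change was -0.44 (SE 0.061, limma adjusted p = 0.00133), -0.42 corrected. KIF20A had 30.7 and 29.2 FPKM at 6 h, 30.99 and 31.8 at 12 h and 23.5 and 23.9 at 24 h. Here the 12 h pair was above the 6 h pair and the fall came afterwards (-0.32, SE 0.0433, limma adjusted p = 0.00113). PLK1, a kinase of mitotic entry and exit, had 81.95 and 78.9 FPKM at 6 h, 82.9 and 83.2 at 12 h and 63.04 and 70.3 at 24 h, and HMMR 41.5 and 43.9 FPKM at 6 h, 41.9 and 41.7 at 12 h and 35.2 and 30.9 at 24 h. In both, the 24 h pair lay below the other 4 libraries. The changes were -0.27 (limma adjusted p = 0.00322) and -0.36 (limma adjusted p = 0.00211), and -0.37 and -0.29 corrected. CCNB1 went from 159.8 and 154 FPKM at 6 h to 127 and 123 at 24 h (-0.33, limma adjusted p = 0.00238). The fall was late in most of the list, with a median change of -0.01 from 6 to 12 h. In the called members 12 h stood at a median share of 0.08 of the whole change. Both 24 h libraries lay below all 4 earlier ones in 35 of the 46 genes, where 19.8% of all genes did. The untreated 12 h library lay above both 6 h libraries in 28 of the 46 (30.5% of all genes) and below both in 12 (44.0%). At 12.5 µg/ml both 12 h libraries lay above both 6 h libraries in 19 (19.1% of all genes) and below both in 5 (25.0%).

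In untreated cells limma called none of the 46 in either direction from 6 to 24 h, with 15 at an unadjusted p below 0.05 and a median of 0.08, and corrected 11 were called higher (5.11% of all genes). The difference between the courses was called in 20 of the 46, all below 0, and in 28 corrected (0.948% and 1.88% of all genes). Its median was -0.26 beside 0.04 for all genes. CCNB2 in untreated cells stood at 122 and 129 FPKM at 6 h and 130.5 and 131 at 24 h, a difference of -0.50 (SE 0.0863, limma adjusted p = 0.0171). CENPF, a kinetochore protein named after its values were seen, went from 53.4 and 55.6 to 44.5 and 42.2 FPKM at 25 µg/ml and from 57.9 and 58.2 to 67.3 and 68.3 at 0 µg/ml, where only the treated change was called (difference -0.54, limma adjusted p = 0.0171). At 12.5 µg/ml 3 of the 46 were called lower (BIRC5, PLK1 and CDC20), beside 3.83% of all genes, with a median of -0.03. FOXM1, the transcription factor of this programme and the member that was higher (from 58.4 and 61.4 FPKM at 6 h to 63.9 and 66.7 at 24 h, 0.12, limma adjusted p = 0.0331), was not called corrected (0.541). Without either the second 24 h library or the second 6 h library 9 members were called lower, without the first 6 h library 15 and without the first 24 h library 26, with medians of -0.20 to -0.15. Corrected and without the second 24 h library 24 were lower. The difference from untreated cells was called in 0 to 24 members when a library was left out, 0 of them without either second 6 h library, the first untreated 6 h library or the second untreated 24 h library, 1 (PLK1) without the second treated 24 h library, 3 and 11 without the first treated 6 h and the first untreated 24 h library, and 24 without the first treated 24 h library. The median of the difference was then -0.29 to -0.23, and 21 members were called when corrected and without the second 24 h library. In bulk RNA, fewer cells in mitosis and less of each transcript per cell cannot be told apart.

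DNA replication genes were called about as often as other genes. Of 45 in the list, 4 were higher (CCNE1, E2F8, FEN1 and ORC1) and 4 lower (MCM5, MCM6 and MCM7 among them), beside 11.8% and 7.36% of all genes, with a median of -0.03. Without the second 24 h library 1 was higher and 3 lower, and corrected 4 were higher (CCNE2, E2F8, FEN1 and RFC5) and 11 lower (11.7% and 10.8% of all genes), with 6 helicase subunits (MCM2 to MCM7) and PCNA among them. MCM6, a subunit of the replicative helicase, had 120.1 and 118 FPKM at 6 h, 104 and 108 at 12 h and 92.8 and 92.2 at 24 h. The 3 pairs were in order without overlap, and the change was -0.36 (SE 0.0362, limma adjusted p = 0.000423). MCM7, another subunit, had 290.3 and 279.6 FPKM at 6 h, 256 and 268 at 12 h and 234 and 239 at 24 h, a change of -0.27 (limma adjusted p = 0.00326). In 27 of the 45 both 12 h libraries lay below both 6 h libraries (21.8% of all genes), and the median change from 6 to 12 h was -0.07. This order was also seen at 12.5 µg/ml in 25 of the 45 (25.0% of all genes). The untreated 12 h library lay below both 6 h libraries in 28 of the 45 (44.0% of all genes). MCM6 was the 1 member whose difference from untreated cells was called (-0.25, limma adjusted p = 0.0291), where untreated cells went from 122 and 122 to 113 and 113 FPKM. Among 14 tested CDK inhibitors and G1 cyclins with their partners, 4 were higher (CCND3, CCNG1, CDK4 and CDKN2C) and 2 lower (RBL1 and E2F3), and without the second 24 h library 2 and 1. CCND3, cyclin D3, went from 115 and 109 FPKM at 6 h to 136 and 141 at 24 h (0.30, limma adjusted p = 0.00415), and its difference from untreated cells was 0.39 (limma adjusted p = 0.0252). MYC had 179 and 183 FPKM at 6 h, 189 and 191 at 12 h and 175 and 181 at 24 h and was not called (-0.02, limma adjusted p = 0.656).

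**Figure D4:**
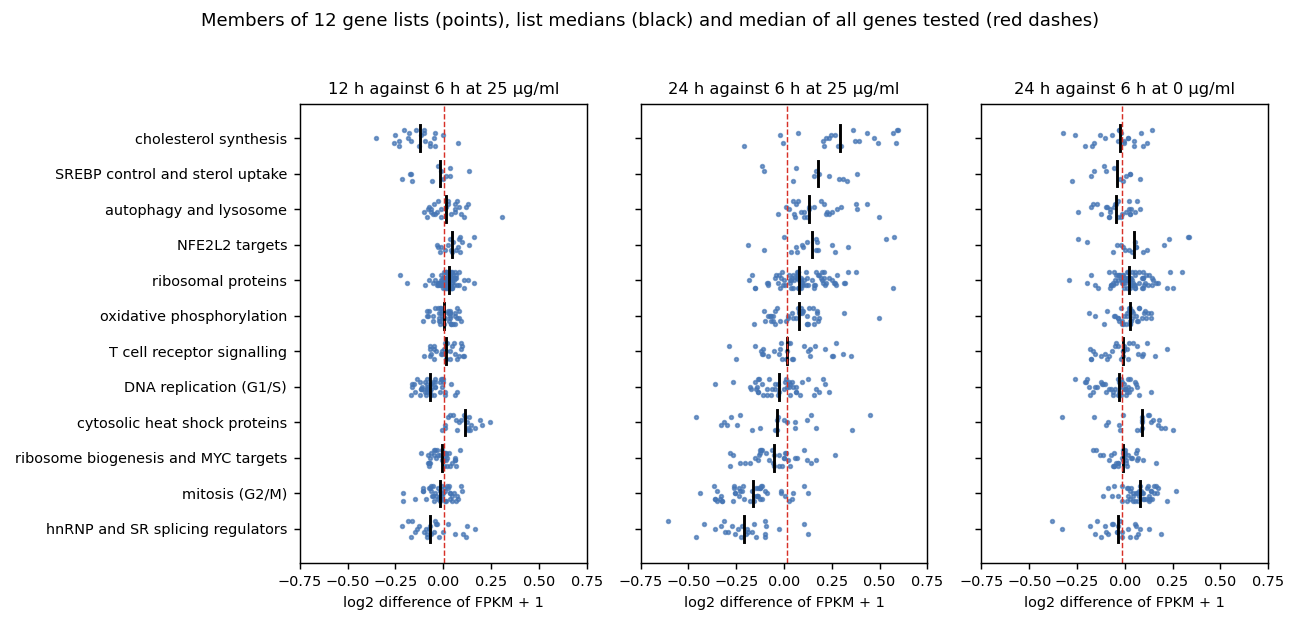
Log2 changes of the members of 12 gene lists (points) from 6 to 12 h and 6 to 24 h at 25 µg/ml and from 6 to 24 h at 0 µg/ml (x axes), with list medians as black bars and the median of all genes as a red dashed line. The cholesterol list lies below the dashed line from 6 to 12 h (median -0.12) and above it from 6 to 24 h (0.29), and the mitosis and splicing regulator lists lie below it from 6 to 24 h at 25 µg/ml (-0.16 and -0.21), while at 0 µg/ml, where the line is at -0.02, their medians are 0.08 and -0.04.

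Splicing regulators fell, and 12 h stood at a median share of 0.33 of the change in the called members. Of 26 hnRNP and SR protein genes with the kinases CLK1 and CLK4, 19 were lower at 24 h and none higher. Of all genes 7.36% were lower and 11.8% higher, and the median of the list was -0.21. Corrected, 14 were lower and SRSF9 was higher (10.8% and 11.7% of all genes), with a median of -0.17. The list's transcripts are poor in GC (median 40.1%). Leaving out each library in turn left 12 to 18 called lower. HNRNPH1, which binds G-rich elements near exons, had 518 and 532 FPKM at 6 h, 465 and 472 at 12 h and 343 and 346 at 24 h. The 3 pairs stepped down without overlap, and its log2 change of -0.61 (SE 0.0343) had the smallest adjusted p of the list (limma, 2.19e-05). SRSF1, the founding SR protein, had 206 and 207 FPKM at 6 h, 203 and 199 at 12 h and 157 and 151 at 24 h, so most of its fall came after 12 h (-0.42, SE 0.0319, limma adjusted p = 6.47e-05). HNRNPR had 233 and 236 FPKM at 6 h, 211 and 215 at 12 h and 186 and 179 at 24 h and SRSF10, an SR protein with a role in heat shock, 166 and 168 FPKM at 6 h, 146 and 147 at 12 h and 135 and 133 at 24 h. Their changes were -0.36 (limma adjusted p = 0.000451) and -0.31 (limma adjusted p = 0.000723), and in both the 12 h pair lay between the others. HNRNPA1, named after its values were seen, went from 364 and 356 FPKM at 6 h to 269.5 and 253 at 24 h (-0.46, limma adjusted p = 0.000723). In untreated cells 2 of the 26 were lower (HNRNPH1 and SRSF6) and SRSF4 higher (1.8% and 0.557% of all genes), with a median of -0.04. HNRNPH1 went from 519 and 520.4 to 399 and 398 FPKM there (-0.38, limma adjusted p = 0.00232). At 12.5 µg/ml 12 of the 26 were lower (3.83% of all genes), with a median of -0.16. At 25 µg/ml both 12 h libraries lay below both 6 h libraries in 16 of the 26 (21.8% of all genes). At 12.5 µg/ml they did in 14 (25.0% of all genes), and the untreated 12 h library did in 16 (44.0% of all genes). SRSF1 in untreated cells went from 189.8 and 189 to 180.5 and 181 FPKM. The difference between the courses was -0.35 (SE 0.0451, limma adjusted p = 0.0128), and -0.32 corrected. Over all genes, such a difference was called below 0 in 0.948% and, corrected, in 1.88%. The difference was called below 0 in 7 of the 26 (median -0.16), corrected in SRSF1 and HNRNPM, and in 0 to 8 when a library was left out. Of the 10 core splicing subunits of the SF3A and SF3B complexes none was called by limma, with 3 at an unadjusted p below 0.05 (SF3B2, SF3B3 and SF3B5) and a median of 0.03. SF3B3 had 42.99 and 42.995 FPKM at 6 h, 43.98 and 44.4 at 12 h and 40.7 and 40.5 at 24 h, a change of -0.08 (limma adjusted p = 0.108). Among 9 tested host genes of small nucleolar RNAs, 3 were lower (SNHG1, SNHG12 and TAF1D), with a median of -0.24, and 1 without the second 24 h library. SNHG1 had 159 and 148 FPKM at 6 h, 139.6 and 146 at 12 h and 110.5 and 119 at 24 h (-0.42, limma adjusted p = 0.00578).

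NEAT1, one of the largest falls, is the long noncoding RNA on which paraspeckles are built. It had 27.3 and 33.6 FPKM at 6 h, 22.3 and 25.03 at 12 h and 13.1 and 17.1 at 24 h. The 3 pairs did not overlap, and the change was -0.97 (SE 0.117, limma adjusted p = 0.000723). Untreated cells fell from 36.2 and 35.98 to 21.6 and 23.98 FPKM (-0.64, limma adjusted p = 0.0202), and the difference between the courses was not called (-0.33, limma adjusted p = 0.275). SFPQ in untreated cells went from 345 and 339 to 302 and 306 FPKM. NONO, its partner in paraspeckles and also chosen after its values were seen, had at 25 µg/ml 275 and 266 FPKM at 6 h, 271 and 272 at 12 h and 254 and 251 at 24 h and was not called (-0.10, limma adjusted p = 0.0798).

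Cytosolic chaperones lay a little above the 6 h level at 12 h, and part of them fell below it by 24 h. Both 12 h libraries lay above both 6 h libraries in 18 of 22 heat shock genes, where 22.8% of all genes did, with a median change of 0.11, none called by limma and 10 at an unadjusted p below 0.05. The untreated 12 h library was above both 6 h libraries in 17 of the 22 (30.5% of all genes). With only the lane 5 libraries the count at 25 µg/ml was again 18 of 22 (36.9% of all genes). At 12.5 µg/ml both 12 h libraries lay above both 6 h libraries, one of them in lane 4, in 8 of 22 (19.1% of all genes). By 24 h, 7 were lower than at 6 h (CHORDC1, DNAJA1, DNAJB1, HSPA1A, HSPA1B, HSPA8 and HSPH1), beside 7.36% of all genes. BAG3, HSF1 and HSPB1 (3 of the 22) were higher, a share near the 11.8% of all genes. The median of the list was -0.04, and 0.01 without the second 24 h library. HSPA8, the constitutive HSC70 and one of the most abundant transcripts here, had 2324 and 2225 FPKM at 6 h, 2469 and 2526 at 12 h and 1686 and 1623 at 24 h. It was highest at 12 h and lowest at 24 h without overlap (-0.46 from 6 to 24 h, SE 0.0573, limma adjusted p = 0.000839). In untreated cells it also fell, from 2489.6 and 2491 to 1989 and 1972 FPKM, and the difference between the courses was -0.13 (limma adjusted p = 0.385). HSPH1, a co-chaperone of the HSP110 family, had 165 and 169.98 FPKM at 6 h, 169.9 and 166 at 12 h and 137 and 129 at 24 h, so that the fall came after 12 h (-0.33, limma adjusted p = 0.000723). In untreated cells it had 169 and 171 FPKM at 6 h and 167 and 167 at 24 h. The difference between the courses was -0.30 (limma adjusted p = 0.0218, and 0.0626 corrected). CHORDC1 was the other member with a called difference, and corrected there were 6, beside 3.3% and 3.1% of all genes. In 6 of the 8 fits without a library no member of the list was called. The HSPH1 call was lost in 7 of the 8 and kept only without the first treated 24 h library. HSP90AA1, named after its values were seen, had 1212 and 1198 FPKM at 6 h, 1422 and 1429 at 12 h and 1295 and 1212 at 24 h, with both 12 h libraries above the other 4 (0.06, limma adjusted p = 0.461). HSF1 rose from 66.6 and 62.99 FPKM at 6 h to 78.2 and 88.1 at 24 h (0.35, limma adjusted p = 0.00197). HSPA1A and HSPA1B are near-identical copies, so the split between them is uncertain. In the endoplasmic reticulum, 2 of 28 chaperone and stress genes were higher (CRELD2 and PDIA4) and 3 lower (HSP90B1, HSPA5 and SEL1L), beside 11.8% and 7.36% of all genes, and without the second 24 h library 1 and 1. HSPA5, the chaperone BiP, had 229 and 217 FPKM at 6 h, 225 and 228 at 12 h and 178 and 169 at 24 h (-0.36, SE 0.0515, limma adjusted p = 0.00152), and in untreated cells it fell from 252 and 258 to 185 and 185 FPKM (-0.46, limma adjusted p = 0.00419). PDIA4, a disulfide isomerase, rose from 88.5 and 89.3 FPKM at 6 h to 106 and 108 at 24 h (0.27, limma adjusted p = 0.000858), and its difference from untreated cells was called (0.33, limma adjusted p = 0.0128).

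Lysosomal genes and ferritin rose. Of 27 tested genes of autophagy and lysosome, 12 were higher and none lower, beside 11.8% and 7.36% of all genes, with a median of 0.13. Corrected, 8 were higher (11.7% of all genes). The 12 included cathepsins (CTSB, CTSD), a hydrolase and an activator (NEU1, PSAP), and membrane and proton pump proteins (LAMP1, SCARB2, ATP6AP1, ATP6V0D1). The growth factor precursor GRN and the transcription factors TFE3 and TFEB were also among the 12. TFEB, which switches on lysosomal genes, had 1.69 and 1.81 FPKM at 6 h, 2.33 and 2.47 at 12 h and 2.96 and 2.802 at 24 h. Its 12 h pair lay between the others, and the change was 0.50 (SE 0.0762, limma adjusted p = 0.00211). GRN had 24.01 and 22.4 FPKM at 6 h, 23.1 and 22.8 at 12 h and 29.8 and 31.3 at 24 h, with only the 24 h pair raised (0.38, SE 0.0428, limma adjusted p = 0.000609). CTSD, cathepsin D, had 58.8 and 59.7 FPKM at 6 h, 63.4 and 62.4 at 12 h and 71.05 and 75.3 at 24 h (0.30, SE 0.0493, limma adjusted p = 0.00294). The corrected changes were 0.39 for TFEB, 0.24 for GRN and 0.13 for CTSD, all still called. The difference from untreated cells was called in 5 of the 27 (NEU1, TFEB, CTSD, GRN and CTSA), beside 3.3% of all genes. Corrected, it was called in NEU1 and SCARB2, beside 3.1% of all genes. When a library was left out, 3 to 9 of the 27 were called higher from 6 to 24 h, 3 of them without the second 6 h library and 4 (CTSD, GRN and TFEB among them) without the second 24 h library. The difference was then called in 0 to 5. The ferritin chains FTH1 and FTL led the NFE2L2 targets. Of these 18, 6 were higher (PGD, TALDO1 and TKT among them) and TXNRD1 lower, beside 11.8% and 7.36% of all genes. FTH1 had 528 and 468 FPKM at 6 h, 565 and 548 at 12 h and 729 and 753 at 24 h, and FTL 473 and 437 FPKM at 6 h, 474 and 488 at 12 h and 659 and 658 at 24 h. For both, the 24 h pair lay well above the other 4 libraries, with changes of 0.57 (SE 0.0781, limma adjusted p = 0.00124) and 0.53 (SE 0.0822, limma adjusted p = 0.00212). In untreated cells FTH1 went from 521 and 514 to 645 and 656 FPKM and was not called (0.33, limma adjusted p = 0.0538), and the differences between the courses were not called (adjusted p = 0.225 and 0.165).

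In the metabolic lists, calls are read against the 11.8% of all genes that were higher and the 7.36% that were lower. Corrected counts are read against 11.7% higher and 10.8% lower. Counts without the second 24 h library are read against the lower shares given above for that fit. Of 24 glycolytic genes 7 were higher and HK2 lower, without the second 24 h library 3 and none, and corrected 5 were higher (ALDOA, ALDOC, GPI, HK1 and PFKL) and HK2 and GAPDH lower. PFKL, the liver-type phosphofructokinase, had 26.04 and 26.2 FPKM at 6 h, 26.9 and 25.96 at 12 h and 34.2 and 37.5 at 24 h (0.44, SE 0.059, limma adjusted p = 0.00113), and 27.1 and 26.6 and then 26.6 and 23.6 FPKM in untreated cells (difference 0.54, limma adjusted p = 0.0165). HK1, hexokinase 1, had 15.5 and 15.6 FPKM at 6 h, 17.02 and 16.9 at 12 h and 20.4 and 19.6 at 24 h, and the difference from untreated cells was 0.41 (limma adjusted p = 0.0212). ALDOC, a brain-type aldolase, was the other member whose difference was called (0.66, limma adjusted p = 0.0186). Among 29 tested ATF4 targets 7 were higher and none lower: CEBPB, CHAC1, SESN2, GPT2, SHMT2, PHGDH and TRIB3. Without the second 24 h library 3 were higher. Of 75 ribosomal protein genes 10 were higher, a share near that of all genes, with a median of 0.08, and none without the second 24 h library. In untreated cells limma called none of the 75, with 4 at an unadjusted p below 0.05. Of 35 genes of ribosome biogenesis 5 were lower (NOP58, WDR43, GNL3, DKC1 and NCL) and BOP1 higher, without the second 24 h library 2 and none, and corrected 15 were lower. WDR43 and NOP58, nucleolar proteins of ribosomal RNA processing, went from 67.7 and 69.8 FPKM at 6 h to 58.9 and 54.01 at 24 h and from 173 and 175 FPKM at 6 h to 148 and 139 at 24 h (limma adjusted p = 0.00203 and 0.00362). Of 41 genes of oxidative phosphorylation 2 were higher (ATP5D and CYC1), a share below that of all genes.

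Of 30 genes of T cell receptor signalling 7 were higher (CD4, NFATC1, LAT, CD3E, PLCG1 and LCK among them) and PTPRC and SH2D1A lower, beside 11.8% and 7.36% of all genes, so the lower ones were no more frequent than elsewhere. Without the second 24 h library 1 was higher and 1 lower. LAT, the adaptor that the receptor's kinases phosphorylate, had 66.8 and 65.6 FPKM at 6 h, 64.1 and 62.2 at 12 h and 77.5 and 80.9 at 24 h. Only its 24 h pair was raised (0.25, SE 0.0502, limma adjusted p = 0.00658), and untreated cells went from 70.8 and 71.4 to 67.3 and 63.05 FPKM, which was not called (difference 0.38, limma adjusted p = 0.0221). CD3E, a receptor subunit, had 321 and 309 FPKM at 6 h, 334 and 343 at 12 h and 381 and 367 at 24 h (0.25, limma adjusted p = 0.013). PTPRC, the phosphatase CD45, fell from 119 and 121 FPKM at 6 h to 102 and 93.3 at 24 h (-0.29, limma adjusted p = 0.0031). Genes of the pre-T cell receptor and NOTCH included 5 higher (DNTT, HES1, HES4, NOTCH3 and PTCRA) and SHQ1 lower, of 14 tested. NOTCH3 had 15.7 and 17 FPKM at 6 h, 19.9 and 19.2 at 12 h and 27.4 and 32.3 at 24 h, rising at each step (0.83, SE 0.11, limma adjusted p = 0.00113), and DNTT, the enzyme that adds bases at recombination joints, 40.3 and 40.9 FPKM at 6 h, 47.5 and 50.6 at 12 h and 61.7 and 55.9 at 24 h (0.52, SE 0.0558, limma adjusted p = 0.00055). PTCRA, the pre-receptor alpha chain, rose from 5.11 and 5.59 FPKM at 6 h to 8.95 and 10.5 at 24 h (0.75, limma adjusted p = 0.00143). In untreated cells 4 of the 14 were called higher (PTCRA, RAG1, DNTT and RAG2), where 0.557% of all genes were. PTCRA rose there from 7.49 and 8.14 to 14.2 and 13.01 FPKM. Of 21 transcription factors of T-cell leukaemia 3 were higher (ID1, ID3 and RUNX3) and 5 lower (ELF1, ETS1, STAT5A and TAL1 among them), and without the second 24 h library 2 and 2. TAL1, the leukaemia factor that marks Jurkat, fell in both courses (-0.18 at 25 and -0.21 at 0 µg/ml). The early activation genes JUN and JUND rose late. JUN had 4.72 and 4.72 FPKM at 6 h, 4.86 and 5.498 at 12 h and 8.02 and 8.32 at 24 h (0.68, SE 0.0782, limma adjusted p = 0.000653) and 5.21 and 5.62 and then 5.07 and 5.28 FPKM in untreated cells, a difference of 0.74 (limma adjusted p = 0.0131; 0.0189 corrected). Of 19 tested, KLF2 and IER5 were also higher and CD83 was lower, and without the second 24 h library 2 were higher and none lower. Of 11 tested genes of T cell inhibition and anergy DGKA was higher (from 37.6 and 36.01 FPKM at 6 h to 41.6 and 42.6 at 24 h, limma adjusted p = 0.00526) and TOX lower (from 32.4 and 31.9 FPKM at 6 h to 28.4 and 28.1 at 24 h, limma adjusted p = 0.02). ALCAM, an adhesion receptor, had 5.55 and 5.29 FPKM at 6 h, 5.18 and 4.79 at 12 h and 4.44 and 4.27 at 24 h (-0.26, limma adjusted p = 0.0384; 0.0583 corrected), and CD6, the partner that it binds, had 8.96 and 8.85 FPKM at 6 h, 8.68 and 8.24 at 12 h and 8.54 and 9.01 at 24 h and was not called (limma adjusted p = 0.843). TXNIP, a glucose-responsive gene, was below the filter, at 0.249 and 0.266 FPKM at 6 h and 0.327 and 0.459 at 24 h. Of 30 interferon-stimulated genes 8 were higher and XAF1 lower, without the second 24 h library 3 and none, with STAT2, a signal transducer of the interferon receptor, going from 7.64 and 8.28 FPKM at 6 h to 10.2 and 10.8 at 24 h (limma adjusted p = 0.00182). In the clock list ARNTL, CRY1 and PER1 were higher and NR1D2 and PER2 lower, of 12 tested, and without that library 1 and 1.

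The largest single rises were often in GC-rich or low genes. C4orf48, a small secreted neuropeptide-like protein, had 48.8 and 31.4 FPKM at 6 h, 44.6 and 41.9 at 12 h and 100.3 and 134 at 24 h, with the second 24 h library the highest (1.54, SE 0.217, limma adjusted p = 0.00143; 1.16 corrected). Its transcript is 73.2% GC, and HES4, a NOTCH target at 73.9% GC, had 43.02 and 30.4 FPKM at 6 h, 44.9 and 39.9 at 12 h and 73.8 and 101 at 24 h (1.24, 0.75 corrected). BHLHE23 and TMEM160, with 73.9% and 72.2% GC, rose by 1.25 and 1.11 (0.77 and 0.73 corrected). CEBPB, a transcription factor of stress and differentiation, had 4.09 and 4.25 FPKM at 6 h, 4.696 and 4.96 at 12 h and 8.395 and 11.9 at 24 h. Most of its rise came after 12 h (1.09, SE 0.125, limma adjusted p = 0.000653), and it rose in untreated cells as well, from 4.12 and 4.92 to 8.03 and 9.16 FPKM. JUND, an AP-1 subunit, had 13.1 and 14.1 FPKM at 6 h, 13.9 and 14.1 at 12 h and 25.4 and 30.1 at 24 h (0.97, SE 0.0701, limma adjusted p = 5.72e-05). Its difference from untreated cells was called (0.68, limma adjusted p = 0.0128), but not corrected (0.103). Of the other large rises, GPR157 went from 1.44 and 2.77 FPKM at 6 h to 4.42 and 6.301 at 24 h (1.05), and RAET1L (1.10), ANKRD9 (1.06) and ZNRF2P2 (1.03) stayed below 5 FPKM in every library. NME1-NME2 (1.23), a readthrough locus, and RN7SK (1.01), a polymerase III RNA, share reads with near-identical copies and are uncertain. Among the falls, LGALS1, galectin-1, had 3.09 and 2.501 FPKM at 6 h, 1.75 and 2.699 at 12 h and 1.103 and 0.287 at 24 h (-1.20, limma adjusted p = 0.00702; 0.0609 without the second 24 h library). GZMA, a granule protease, had 4.01 and 3.24 FPKM at 6 h, 2.21 and 2.41 at 12 h and 1.26 and 1.89 at 24 h (-0.85, limma adjusted p = 0.00745) and went from 3.12 and 3.92 to 1.35 and 2.096 FPKM in untreated cells. ARHGAP33, a GTPase regulator, had 10.6 and 11.2 FPKM at 6 h, 8.13 and 9.06 at 12 h and 6.05 and 6.98 at 24 h and fell in untreated cells by a similar amount (-0.67 and -0.66). The log2 change was -0.68 for PKI55, which went from 6.96 and 6.81 FPKM at 6 h to 4.24 and 3.63 at 24 h, -0.91 for CNTF, -0.80 for SPINK2 and -0.70 for AVPR2, the last 3 from 3.596 and 3.65, 2.41 and 1.78 and 2.22 and 2.28 FPKM at 6 h. MSH5-C6orf26 (-1.13) and RAD51L3-RFFL (-0.88) are readthrough loci, whose values are uncertain.

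Across all genes the treated and untreated time courses were related only loosely: the log2 changes from 6 to 24 h at 25 and 0 µg/ml, which share no library, had a Pearson correlation of 0.26 over 12025 genes, and 0.29 corrected. Genes are not independent replicates, and all libraries share the line and the protocol. The median size of the change in the 2307 called genes was 0.28 at 25 µg/ml, and in the same direction 0.06 at 0 µg/ml and 0.08 at 12.5 µg/ml; choosing the genes on the first of these values inflates it beside the others. The difference between the courses was called in 397 genes, 283 above 0 and 114 below. Corrected, it was called in 346 (3.1%), 136 above (1.22%) and 210 below (1.88%). Of the 397, 182 (45.8%) were called again corrected in the same direction. The share above 0 was 71.3%, 53.3% with each library centred on its median, 54.2% after quantile normalization and 39.3% corrected, so the direction of the excess depends on the scaling. This count rested on single libraries. It was 5 without the second untreated 6 h library, 6 without the second 6 h library at 25 µg/ml, 11 without the second untreated 24 h library, 18 without the second 24 h library at 25 µg/ml, 19 and 63 without the first 6 h library of the untreated and treated course, 221 without the first untreated 24 h library, 834 without the first 24 h library at 25 µg/ml and 9 within lane 4. TNFSF9 and TNFRSF4 were among the largest differences above 0. TNFSF9, the ligand 4-1BBL, had 1.18 and 1.26 FPKM at 6 h, 1.32 and 1.26 at 12 h and 2.7999 and 2.16 at 24 h and went from 1.78 and 1.96 to 1.49 and 1.32 FPKM in untreated cells (difference 0.90, SE 0.133, limma adjusted p = 0.0128; 0.74 corrected). TNFRSF4, the receptor OX40, had 12.8 and 12.3 FPKM at 6 h, 13.3 and 12.8 at 12 h and 17.8 and 20.6 at 24 h against 16.2 and 16.3 and then 13.6 and 12.4 FPKM in untreated cells (0.87, SE 0.125, limma adjusted p = 0.0128; 0.48 corrected). In both, the treated pair lay below the untreated pair at 6 h and above it at 24 h. The change was 0.64 for TNFSF9 and 0.57 for TNFRSF4 at 25 µg/ml, and -0.26 and -0.30 at 0 µg/ml. The untreated change alone was not called. C6orf223 had 6.19 and 5.78 FPKM at 6 h, 5.61 and 5.49 at 12 h and 10.96 and 12.1 at 24 h and 6.48 and 6.14 and then 5.46 and 6.08 FPKM without the protein (0.95, limma adjusted p = 0.00792). MFAP4, a matrix protein, rose from 3.35 and 3.25 FPKM at 6 h to 6.25 and 7.66 at 24 h (difference 0.85, limma adjusted p = 0.0167). The differences of TOR2A and PLAC8L1 were 0.78 and 1.35. Below 0, H1F0, the linker histone of resting cells, went from 13.5 and 14.1 FPKM at 6 h to 10.7 and 10.5 at 24 h with ILT3.Fc and from 16.1 and 14.7 to 17.9 and 17.7 without it (-0.55, SE 0.0833, limma adjusted p = 0.0131). C5orf39 (-0.55) and HCG27 (-0.64) followed. FAM72B (-0.58) has near-identical copies and GPR75-ASB3 (-0.86) and TMED7-TICAM2 (-0.56) are readthrough loci, so their values are uncertain.

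**Figure D5:**
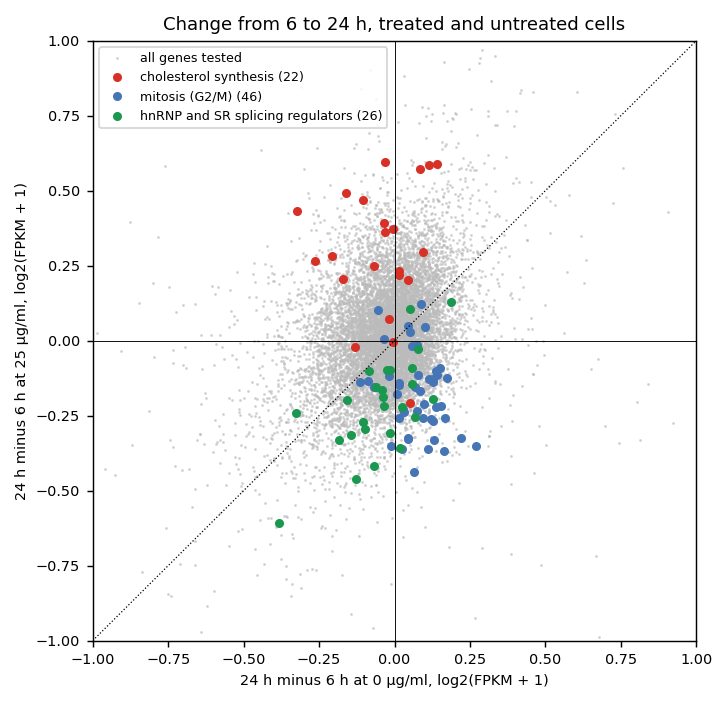
Log2 change from 6 to 24 h at 0 µg/ml (x axis) against that at 25 µg/ml (y axis) for each tested gene, with genes of the cholesterol, mitosis and splicing regulator lists coloured and a dotted line where both changes are equal; 145 genes lie beyond the axes. Cholesterol genes lie above the dotted line (median difference 0.39), mitosis genes below it (-0.26), and splicing regulators lie below the horizontal zero line (median -0.21 at 25 µg/ml).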

How the data were processed

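RNA of Jurkat cells was sequenced in 17 libraries, and the authors deposited 1 table of FPKM values for 25548 gene symbols (45 symbols on repeated lines). Reads were aligned with TopHat2 2.1.0, per the submitters' processing notes. Which tool, build and annotation gave the FPKM is not given in the sources used here. FPKM are not counts, so depth is unknown, and an exact 0 may be a failed estimate. The gene lists and the comparisons were chosen with earlier results of these data known.

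Of all symbols, 12025 had a mean FPKM of at least 1 over the 6 libraries at 25 µg/ml. The log2(FPKM + 1) values of all 17 libraries were fitted by dose and time group with limma 3.58.1 (R 4.3.3), with a variance trend, 8 residual degrees of freedom and 3.05 prior ones, and p-values were adjusted by Benjamini and Hochberg over all genes. The difference between time courses is the interaction of dose and time for 25 against 0 µg/ml. For the correction, each library's deviation from the gene means was smoothed against GC content and log length with loess (span 0.3) and subtracted. GENCODE v29 gave both for 11163 of the genes tested (92.8%). Alternatives were a pseudocount of 0.1, a mean of at least 5 FPKM, no filter, median centring, quantile normalization, no variance trend, lane as a term, lane 4 only, the replicate number as a block, the compared libraries alone, the correction, and leaving out each library. For comparisons of times at 25 µg/ml, the compared libraries were all 6 of that dose. The correction without the second 24 h library and within lane 4 was added after seeing the data.

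Genes were named by rule: the 12 largest called rises and falls from 6 to 24 h, and the 6 largest differences between courses in each direction, among genes with no 0 in the 6 libraries whose groups did not overlap; from each list, the 4 or fewer members of lowest p; and 10 candidate genes. Others are marked. Some genes that the rule or a list names are not reported here, though they stay in the fit and in the counts. On simulated data with 200 of 12025 genes changed, 26.1% of changes of 0.25 and 79.4% of changes of 0.5 were called for 24 against 6 h, with 3.83% false calls. For the difference between courses the shares were 4.2% and 49.9%, with 5.01% false calls. Whether these shares hold in the measured libraries, some of which deviated along GC content, was not tested. Promoters came from the RefSeq table of GRCh38.p14.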

Additional observations from a re-analysis of the deposited data

Results flagged for a closer look

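The following genes were picked out because the change from 6 to 24 h differed between cells at 25 and 0 µg/ml by limma's test of the difference itself, at an adjusted p below 0.05. Each value is the log2 change at 25 µg/ml minus that at 0 µg/ml, from 2 libraries in each of 4 groups. They are 51 such genes among those named by the rule in the processing notes or described in the report. ACAT2, NSDHL, FDPS, CHORDC1, NEU1 and CTSA, also named above for a called difference, are not counted among the 51. Among enzymes and regulators of sterol metabolism the difference was above 0 in MVD (0.76), HMGCS1 (0.65), MVK (0.57), NR1H3 (0.54), LSS (0.53), MSMO1 (0.47), DHCR7 (0.45), FDFT1 (0.42) and INSIG1 (0.35), and below 0 in LBR (-0.26). All named genes of mitosis with such a difference were below 0: CENPF (-0.54), CENPE (-0.53), CCNB2 (-0.50), HMMR (-0.47), PTTG1 (-0.46), PLK1 (-0.40), CCNB1 (-0.37), KIF20A (-0.37) and TOP2A (-0.35). The cell cycle genes outside mitosis were CCND3 (0.39), MCM6 (-0.25) and H1F0 (-0.55). Among splicing regulators and chaperones the differences were HNRNPR (-0.38), SRSF1 (-0.35), HNRNPA1 (-0.34), HNRNPH1 (-0.23), HSPH1 (-0.30) and PDIA4 (0.33). In metabolism and the lysosome they were ALDOC (0.66), PFKL (0.54), HK1 (0.41), PDK1 (-0.41), AARS (0.21), TFEB (0.52), CTSD (0.40) and GRN (0.36). Among genes of signalling and transcription they were JUN (0.74), JUND (0.68), LAT (0.38), SHQ1 (-0.24), TNFSF9 (0.90) and TNFRSF4 (0.87). The rest, named for the size of the difference, were PLAC8L1 (1.35), C6orf223 (0.95), MFAP4 (0.85), TOR2A (0.78), GPR75-ASB3 (-0.86), HCG27 (-0.64), FAM72B (-0.58), TMED7-TICAM2 (-0.56) and C5orf39 (-0.55), of which GPR75-ASB3, FAM72B and TMED7-TICAM2 share reads with other loci. Many of these calls were lost when a library was left out: of the 51, 17 and 1 without the first untreated and treated 24 h library, 43 without the second treated 24 h library, 47 without the second untreated 24 h library, 44 and 48 without the first and second untreated 6 h library, and 32 and 48 without the first and second treated 6 h library. HMGCS1 and C6orf223 kept theirs in all 8 fits. With the GC and length correction, 182 of all 397 called differences (45.8%) were called again in the same direction. Of the genes listed here, JUND, DHCR7, HSPH1, HNRNPR, HNRNPA1, HNRNPH1, TFEB, CTSD and GRN were among those not called corrected. The part of any technical or biological source in these differences was not tested.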

How the results depend on the processing

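The direction of every called change from 6 to 24 h, and of every called difference between courses, held among the named genes in each alternative that gave a value. Of 219 such calls 26 were lost with the GC and length correction, 18 with lane as a term, 192 within lane 4, and 76 to 117 without either 6 h library or the second 24 h library. Gene counts that moved by over 1.5 times were as follows, and the cause was not tested. For 24 against 6 h at 25 µg/ml (2307) they were 103 within lane 4, 890 there corrected, 1438 corrected without the second 24 h library, and 732 to 2085 leaving out each library. For 12 against 6 h (1) they were 3 with no filter, with quantile normalization or with no variance trend. They were 2 from the 6 libraries at 25 µg/ml alone, and 46 corrected. For 24 against 12 h (1454) they were 245 with lane as a term, 685 corrected without the second 24 h library, and 261 to 1430.0 leaving out each library. For untreated cells (283) they were 2 from their own libraries, 4 within lane 4, 10 there corrected, 996 corrected, and 3 to 38 leaving out each library. For the difference between courses (397) they were 234 with no filter, 128 from the libraries compared, 9 within lane 4, 10 there corrected, 146 corrected without the second treated 24 h library, and 5 to 834 leaving out each library. For 12.5 µg/ml (727) they were 10 from its own libraries, 1681 within lane 4, 1776 there corrected, 1491 corrected, and 92 to 3440.0 leaving out each library. The median position of 12 h was 0.282 corrected and 0.164 to 0.277 leaving out each of the 6 treated libraries. The median of the cholesterol list was 0.22 within lane 4 corrected and 0.27 to 0.34 leaving out each library. The median of the mitosis list was -0.20 with quantile normalization and -0.20 to -0.15 leaving out each library. The median of the splicing regulators was -0.24 with quantile normalization, -0.17 corrected, -0.18 corrected without the second 24 h library, and -0.23 to -0.19 leaving out each library. Signs turned only in genes that were not called: HSP90AA1 (-0.053 with quantile normalization), CD6 (-0.054 to 0.015 leaving out each library), PMVK (-0.12 to 0.072 likewise) and GGPS1 (0.0051 with lane as a term, 0.035 corrected, 0.021 within lane 4 corrected and -0.011 to 0.0011 leaving out each library).

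Libraries with the same replicate number did not deviate together. Correlations were -0.08, -0.03 and 0.09 between times at 25 µg/ml, and -0.14 between untreated 6 and 24 h. Between 25 and 0 µg/ml they were -0.05 at 6 h and -0.19 at 24 h. Whether such libraries were prepared together cannot be told from these values. With the replicate number as a block 2187 genes were called for 24 against 6 h at 25 µg/ml, 2 for 12 against 6 h and 264 for the difference between courses. Block and correction together gave 2415, 28, 941 for untreated cells and 1441 for 12.5 µg/ml, a median position of 0.273, a GGPS1 change of 0.035 and a splicing median of -0.17. FPKM keep no counts, so sampling error cannot be separated from the spread between the 2 libraries of a group.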

Other observations

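Further gene lists were counted between 6 and 24 h at 25 µg/ml, where 11.8% of all genes were called higher and 7.36% lower, and 4.12% and 3.46% without the second 24 h library. Of 18 tested hypoxia genes 4 were higher (VEGFA, MIF, DDIT4 and EGLN1) and PDK1, a kinase that restrains pyruvate oxidation, was lower, and without that library 1 was higher and 1 lower. Of 22 genes of mTORC1 and S6 kinase 5 were higher (EIF4EBP1, MLST8, RPS6KB2, FLCN and AKT1S1), with a median of 0.09, and none without that library. PDK1 had 6.09 and 6.197 FPKM at 6 h, 5.25 and 5.06 at 12 h and 4.95 and 4.76 at 24 h (-0.29, limma adjusted p = 0.00423) and 5.99 and 6.14 and then 6.48 and 6.86 FPKM in untreated cells. Of 20 p53 targets 3 were higher (SESN2, TNFRSF10B and BAX), 1 without that library, and of 6 metallothioneins limma called none (1 at an unadjusted p below 0.05). Of 19 integrins and homing receptors 4 were higher (KLF2, ICAM2 and SELPLG among them) and 4 lower (ITGA4, ALCAM, SPN and CD47), and without that library 1 and 3. ITGA4, the alpha-4 integrin chain, is known for binding VCAM1. Of 18 cytosolic tRNA synthetases AARS and WARS were higher, a share no larger than that of all genes. Of 11 tested NF-kB targets LTB and NFKB2 were higher and CD83 lower, and without that library 1 was higher and none lower.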
